A study of Mus musculus with 4 samples.

Results

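Mitochondrial ribosomal protein genes were examined in mouse embryonic fibroblasts (MEFs) of 2 genotypes. The genes were taken by their symbols, Mrps or Mrpl followed by a number and, in some, a letter from a to c, with the deposited counts of all transcripts of a symbol summed. The rule gave 77 genes of the 36846 symbols in the deposited table, 29 with Mrps symbols and 48 with Mrpl symbols. All 77 passed the filter on low counts and were among the 14760 genes tested.

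RNA was sequenced from wild type (WT, 2 libraries) and Dnmt3l knockout (Dnmt3l-KO, 2 libraries) C57BL/6 MEFs at passage 4. The lines had been derived at embryonic day 13.5 or 14.5 after crossing Dnmt3l+/- parents, and both genotypes were grown in DMEM with 10% serum, so genotype is the labelled difference between the groups. The study sought genes behind the better development of embryos cloned from the knockout cells by nuclear transfer. Whether the libraries within a genotype stem from different embryos or lines is not labelled, so p-values here cover only the spread among 4 libraries, which may be technical.

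Mitochondria keep their own ribosome, which translates the few messages of mitochondrial DNA, all of them subunits of the respiratory chain and the ATP synthase. Its RNAs are made inside the organelle, while its proteins are encoded in the nucleus, made on cytosolic ribosomes and imported. Some of them descend from proteins of bacterial ribosomes and others arose in mitochondria, and they assemble into a small subunit, which reads the message, and a large subunit, which joins the amino acids. The symbols do not follow the structure throughout. Mrps18a and Mrps30 encode proteins of the large subunit, and Mrps36 is now assigned to the 2-oxoglutarate dehydrogenase complex. Here 27 genes were counted with the small subunit, Mrps36 among them, and 50 with the large.

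The WT libraries held 47776612 and 41049869 counts in all, and the Dnmt3l-KO libraries 51465395 and 40681328. Dnmt3l itself had 6 and 1 counts in WT, against 0 and 0 in Dnmt3l-KO, too few to check the genotype labels. Fibroblast markers (10 genes, collagens among them) summed to 11556 to 16456 CPM (counts scaled by TMM library sizes to a common total) over the 4 libraries. Markers of blood cells, endothelium, epithelium, nerve and muscle summed to far less, but some were expressed. Skeletal muscle markers summed to 280 and 178 CPM in WT and 261 and 134 CPM in Dnmt3l-KO. Nerve markers summed to 128 to 164 CPM over the 4 libraries and epithelial markers to 41.5 to 53.8 CPM. Blood cell and endothelial markers reached at most 18.6 CPM. At 0 in every library were 6 of 7 erythroid markers, Cldn5 of endothelium and Krt5 and Krt14 of epithelium. In bulk RNA, fewer cells of a type and less RNA per cell cannot be told apart.

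The 77 genes were expressed in every library, with 340 to 3632 counts per gene and library. On a scale per transcript length (FPKM as deposited, summed per gene, mean of 4 libraries) their median was 23.5, against 5.28 over all genes tested. The middle of the range was crowded: 52 of the 77 lay between 10 and 40 FPKM, with 12 below and 13 above. The highest gene exceeded the lowest 35.5-fold, although the products, apart from that of Mrps36, enter 1 particle.

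Mrps21, a homologue of bacterial S21, stood highest, with 98.1 and 118 FPKM in WT and 121 and 95.5 FPKM in Dnmt3l-KO. Mrpl33 followed with 96.3 and 111 FPKM in WT and 96.3 and 81.3 FPKM in Dnmt3l-KO, then Mrpl54 (92.8 FPKM ± 7.97, SD over 4 libraries), Mrpl20 (91.7 ± 7.53) and Mrpl52 (68.7 ± 4.02). The top 4 overlapped in their spread over libraries, so their order is not resolved, while Mrpl52 lay below all of them in every library. At the other end Mrps25 had the lowest level, 3.25 and 3.36 FPKM in WT and 2.81 and 2.78 FPKM in Dnmt3l-KO, below every other gene in each library. Mrpl19 (5.38 FPKM ± 0.271), Mrpl1 (5.84 ± 0.706) and Mrpl35 (6.18 ± 0.174) came next, and the ranges of Mrpl1 and its neighbours overlapped. Mrpl41, the fifth from the bottom, had 6.86 FPKM ± 0.61. An FPKM depends on the length a message was given, and the lengths used by the authors are not among the sources used here.

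**Figure D1:**
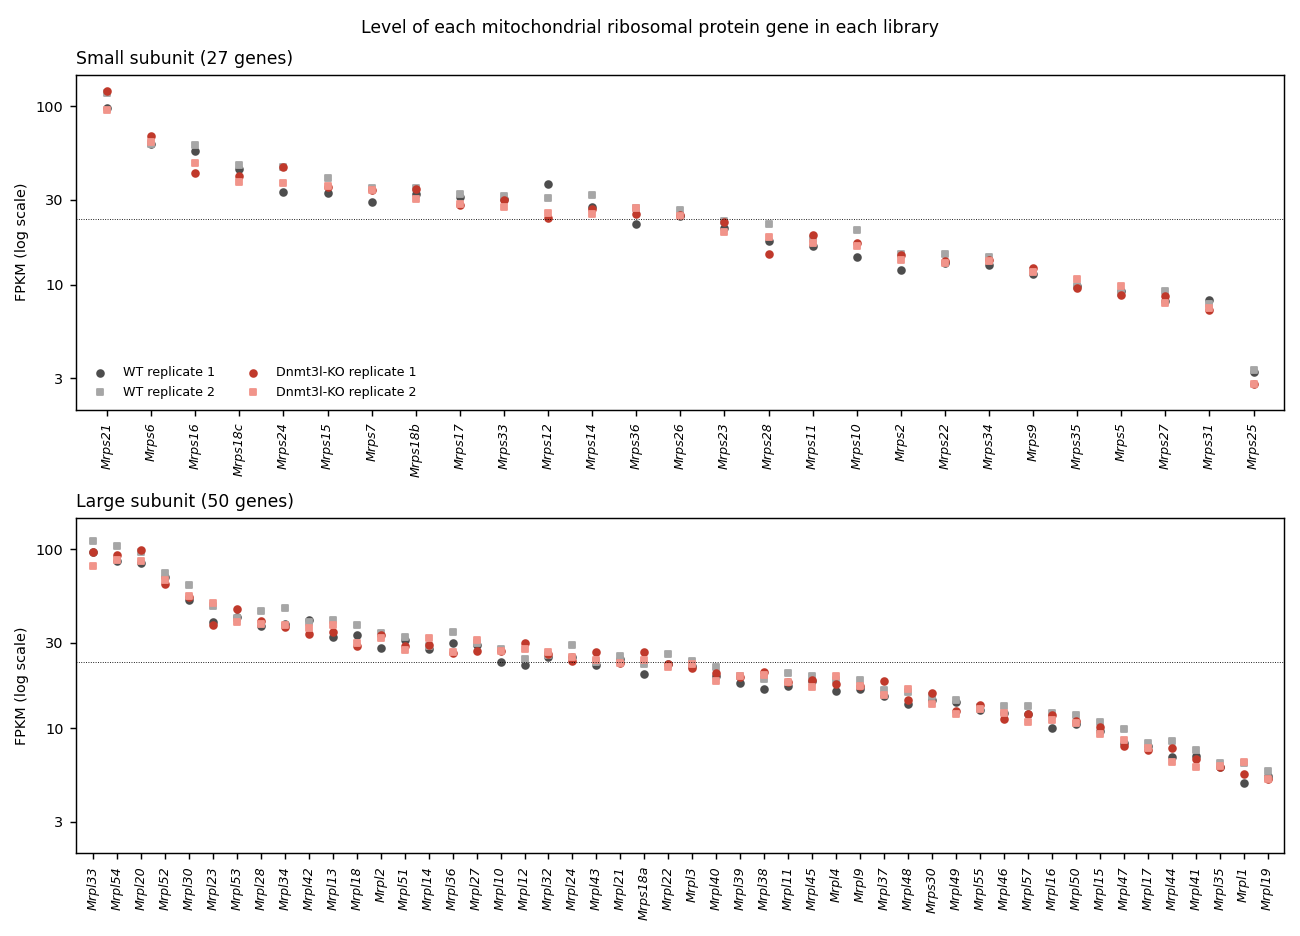
FPKM of each of the 77 genes in each library on a log scale, small subunit above and large subunit below, ordered by the mean; the dotted line is the median of the 77 genes, 23.5 FPKM. The 4 libraries of a gene lie close together, with a median coefficient of variation of 7.89%, against a 35.5-fold range between genes.

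None of the 77 genes passed the test between genotypes (edgeR quasi-likelihood F-test, Benjamini-Hochberg adjusted p below 0.05 over 14760 genes). Their smallest adjusted p was 0.999, and over all genes 3 were called, 0.0203%. DESeq2 called 31 of 18701 genes with an adjusted p, 0.166%, and again no mitochondrial ribosomal protein gene. No difference of a single gene between genotypes was thus resolved, and the values below describe these libraries.

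The genes leaned to lower values in Dnmt3l-KO by a small amount. The fitted log2 fold change (Dnmt3l-KO minus WT) was negative in 59 of the 77 genes, where 48.7% of all genes tested were negative. Its median was -0.088, where that of all genes was 0.006, and its extremes were -0.51 (Mrps12) and 0.25 (Mrpl12). In 39 genes the fold change lay within 0.1 of 0, and in 4, Mrps12, Mrps16, Mrpl36 and Mrpl18, it was larger than 0.3 in size.

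Both Dnmt3l-KO libraries lay below both WT libraries for 35 of the 77 genes (45.5%), and 16.5% of all genes tested had that order. Both lay above for 3 genes, Mrpl12, Mrps18a and Mrpl38, where the share over all genes was 16.2%. The groups overlapped for the other 39. At an unadjusted p below 0.05 there were 5 lower genes, Mrps16, Mrpl18, Mrpl36, Mrps12 and Mrps25, and 0 higher ones, against 1.81% of all genes lower and 2.34% higher.

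The lean was uneven between the Dnmt3l-KO libraries. Against the WT mean, the median gene stood at -0.049 (log2) in replicate 1 and at -0.14 in replicate 2. The pooled SD of these medians within a genotype was 0.047, nearly all of it from the knockout. Replicate 1 thus lay about that SD below WT and replicate 2 further. The knockout libraries also stood apart in cell type markers. The fibroblast markers had a median of -0.39 against the WT mean in replicate 1 and 0.59 in replicate 2, with sums of 11556 and 16456 CPM, against 13485 and 12267 CPM in WT. The 2 skeletal muscle markers tested, Des and Acta1, had medians of 0.43 and -0.43 in the same order. The part of these differences in the values of the 77 genes was not tested. Without replicate 2 the median fold change was -0.050, where that of all genes was -0.013. In that setting 48 genes were negative against 52.2% of all genes, and 40 (51.9%) lay below both WT libraries against 38.9% of all genes. Without replicate 1 the median was -0.15, where that of all genes was -0.0017, and 55 genes (71.4%) lay below both WT libraries against 37.2% of all genes.

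Summed over the 77 genes, the level was 2315 and 2351 CPM in WT and 2269 and 2111 CPM in Dnmt3l-KO. The sum was lower in both knockout libraries on that scale. As FPKM the sums were 2016 and 2263 in WT and 2091 and 2021 in Dnmt3l-KO, and the groups overlapped. With FPKM in place of CPM, 23 genes (29.9%) lay below both WT libraries, against 10.5% of all genes. The median was -0.043 on the log2(FPKM + 1) scale, where that of all genes was 0.026. The genes have short messages, with a median length of 1047 bases against 2185 over the 13848 genes tested that had a length. Length and GC content here are medians over the GENCODE transcripts of a gene, which need not match the lengths behind the FPKM. Mrpl17, for example, was given 743.5 bases but had 62.1 and 59.4 CPM and only 7.95 and 8.33 FPKM in WT. After each library was corrected for length and GC content the median was -0.042, where that of all genes with a length was 0.0019. Then 26 genes (33.8%) lay below both WT libraries, against 13.9% of all genes with a length.

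The genes were also split at their median GC content and at their median length. Among the 39 genes with GC at or below their median, 33 were negative and 25 lay below both WT libraries, and the median log2 fold change was -0.11. Among the 38 with higher GC, 26 were negative and 10 lay below, with a median of -0.065. Among the 39 shorter genes 32 were negative and 16 lay below, with a median of -0.084, and among the 38 longer ones 27 were negative and 19 lay below, with a median of -0.088. Neither difference was tested. Over all genes tested 48.7% were negative and 16.5% lay below both WT libraries, and these shares were not taken by GC content or length. Across the 77 genes, which share the 4 libraries, Pearson's r of the log2 fold change was 0.27 with GC content and -0.0048 with log2 length, both as descriptions.

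**Figure D2:**
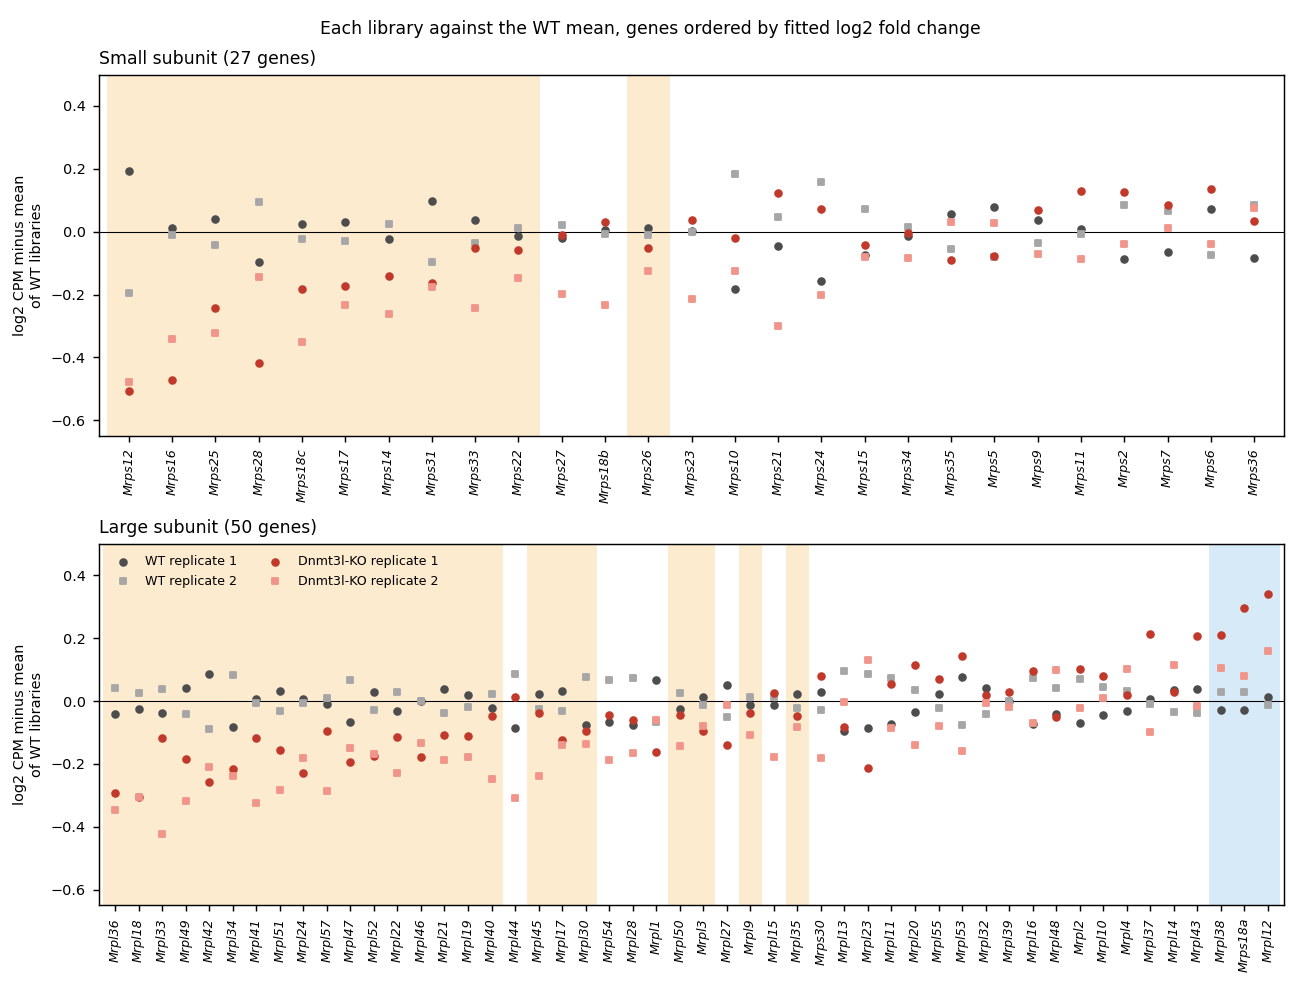
log2 CPM of each library minus the mean of the WT libraries, for each of the 77 genes, ordered by fitted log2 fold change; orange bands mark genes with both Dnmt3l-KO libraries below both WT libraries and blue bands those with both above. There are 35 orange and 3 blue genes; the medians of all 77 genes are -0.049 in Dnmt3l-KO replicate 1 and -0.14 in replicate 2.

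In the small subunit 22 of 27 genes (81.5%) were negative, 11 (40.74%) lay below both WT libraries and 0 above, with a median of -0.084, where 48.7%, 16.5% and 16.2% of all genes tested were negative, below and above. Its 17 descendants of bacterial proteins had 13 negative and 6 (35.3%) below, median -0.074. The 10 genes counted as proper to mitochondria had 9 negative and 5 (50%) below, median -0.094.

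Mrps16, a core protein of the small subunit in which inherited mutations cause a human mitochondrial disease, gave the smallest p of the 77. It lies at chr14:20391222-20393634 (GRCm38). Its level was 36.9 and 36.4 CPM in WT and 26.4 and 28.9 CPM in Dnmt3l-KO. The WT libraries were almost level and both knockout libraries lay well below them, 1.32-fold lower by the fit (log2 -0.40 ± 0.10 SE, unadjusted p = 0.010, edgeR adjusted p = 0.999). Mrps12, which encodes the homologue of the bacterial protein S12 of the decoding centre (chr7:28739641-28741821), had the most negative fold change of the 77. Its level was 29.1 and 22.2 CPM in WT and 17.9 and 18.3 CPM in Dnmt3l-KO. The groups did not overlap, but the WT libraries were further apart from each other than the nearer of them was from the knockout, and the fit gave log2 -0.51 ± 0.16 SE. The value rests on the choice of WT library: it was -0.30 without WT replicate 1 and -0.69 without WT replicate 2.

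Mrps25, proper to mitochondria and the lowest of the 77 genes per length (chr6:92169512-92184023), had 23.0 and 21.7 CPM in WT and 18.8 and 17.9 CPM in Dnmt3l-KO. Both knockout libraries were lower, by log2 -0.28 ± 0.10 SE. The small subunit also holds 2 of the 3 mammalian homologues of bacterial S18. Mrps18c (chr5:100798759-100804467) had 27.3 and 26.4 CPM in WT and 23.6 and 21.0 CPM in Dnmt3l-KO, with no overlap (log2 -0.26 ± 0.11 SE, and -0.14 after the length and GC correction). Mrps18b (chr17:35910380-35916440) had 39.7 and 39.3 CPM in WT and 40.3 and 33.6 CPM in Dnmt3l-KO, where replicate 1 was above WT and replicate 2 below it. The third homologue, Mrps18a, sits in the large subunit and leaned the other way, as described next.

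In the large subunit 37 of 50 genes (74%) were negative, 24 (48%) lay below both WT libraries and 3 (6%) above, with a median of -0.090, against the same 48.7%, 16.5% and 16.2% of all genes. The 30 descendants of bacterial proteins, Mrps18a among them, had 22 negative, 13 (43.3%) below and 2 above, median -0.072. The 20 genes proper to mitochondria had 15 negative, 11 (55%) below and 1 above, median -0.14. No difference between these classes or between the subunits was tested.

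Mrpl18 (chr17:12911345-12917787), known also for its part in carrying 5S ribosomal RNA into mitochondria, had 36.8 and 38.2 CPM in WT and 30.4 and 30.3 CPM in Dnmt3l-KO. The knockout libraries were almost equal and below both WT libraries (log2 -0.31 ± 0.093 SE, unadjusted p = 0.022). Mrpl36 (chr13:73328503-73332178), the homologue of the small bacterial protein L36, had 31.8 and 33.7 CPM in WT and 26.8 and 25.8 CPM in Dnmt3l-KO. It was lower in both knockout libraries, by log2 -0.32 ± 0.098 SE. Mrpl33, second in level, had 54.3 and 57.3 CPM in WT and 51.4 and 41.6 CPM in Dnmt3l-KO, so that most of its difference (log2 -0.26 ± 0.13 SE) lay in replicate 2. It was -0.12 without that library, -0.42 without replicate 1 and -0.12 after the length and GC correction.

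Mrpl12 (chr11:120484637-120488754) had the highest fold change of the 77. Its product is the homologue of bacterial L7/L12, the stalk protein that meets the translation factors, and it has also been reported to bind the mitochondrial RNA polymerase. Its level was 25.4 and 24.9 CPM in WT and 31.9 and 28.1 CPM in Dnmt3l-KO. Both knockout libraries were above WT (log2 0.25 ± 0.11 SE, unadjusted p = 0.069), replicate 1 more so, and the value was 0.16 without it. Mrps18a (chr17:46111004-46128908) had 20.3 and 21.1 CPM in WT and 25.5 and 21.9 CPM in Dnmt3l-KO, a narrow gap in replicate 2 (log2 0.19 ± 0.12 SE, 0.079 without Dnmt3l-KO replicate 1 and 0.30 without replicate 2). Mrpl38 (chr11:116131817-116138868) had 27.1 and 28.2 CPM in WT and 32.0 and 29.7 CPM in Dnmt3l-KO (log2 0.16 ± 0.10 SE, and 0.10 without Dnmt3l-KO replicate 1 or after the length and GC correction). The positive genes next by p, Mrpl43 (0.10 ± 0.12), Mrpl14 (0.072 ± 0.10) and Mrpl4 (0.061 ± 0.099), had log2 fold changes within their standard errors and overlapping groups.

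Some genes kept their total while the estimated makeup of their transcripts differed. The 77 genes hold 160 annotated transcripts, of which 139 passed the filter. No transcript was called (edgeR over 39633 transcripts, 1 called, 0.00252%), 45 lay below both WT libraries where 16.9% of all transcripts did, and 15 lay above, against 16.4%. Of the 35 genes with more than 1 transcript, 17 had over 90% of their counts on a single one.

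Mrps35, a small subunit protein proper to mitochondria (chr6:147042728-147070906), had 12.1 and 11.2 CPM in WT and 10.96 and 11.9 CPM in Dnmt3l-KO, with no separation. Within it a predicted variant named X1 took 7.53% and 4.91% of the counts in WT, against 28.2% and 28.7% in Dnmt3l-KO. A further predicted variant, X3, had 1 and 4 counts in WT, against 34 and 17 in Dnmt3l-KO. The counts of X1 were 43 and 23 in WT and 154 and 143 in Dnmt3l-KO, while the curated transcript had 527 and 441 in WT and 359 and 338 in Dnmt3l-KO. X1 was higher in both knockout libraries (log2 2.15 ± 0.54 SE, unadjusted p = 0.012, edgeR adjusted p = 0.9999), and in the authors' deposited table its log2 fold change was 1.15 with an adjusted p of 0.152.

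Mrpl48, a large subunit protein (chr7:100545779-100608301), gave a like picture with a transcript that RefSeq lists as non-coding. The gene had 15.5 and 16.3 CPM in WT and 15.3 and 17.0 CPM in Dnmt3l-KO. The non-coding transcript held 38 and 14 counts in WT, against 166 and 136 in Dnmt3l-KO, 5.22% and 2.05% of the gene against 21.7% and 19.1%. The coding transcript held 674 and 653 in WT and 565 and 545 in Dnmt3l-KO. The log2 fold change of the non-coding transcript was 2.51 ± 0.65 SE (unadjusted p = 0.013, edgeR adjusted p = 0.9999), and the authors' deposited table gives 1.19 with an adjusted p of 0.126.

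Transcripts of Mrps24 and Mrps33 were lower in both knockout libraries. In Mrps24 the curated transcript had 483 and 460 counts in WT, against 152 and 271 in Dnmt3l-KO, the rest lying on a predicted variant. In Mrps33 the transcript named variant 2 had 176 and 110 counts in WT, against 62 and 63 in Dnmt3l-KO, at most 10.1% of the gene. Transcripts of a gene share most of their sequence, and how reads were divided among them was not given in the sources used here. Of the transcripts of the 77 genes, 111 have an adjusted p in the authors' deposited table and 0 of those lie below 0.05, against 124 of 28097 overall.

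**Figure D3:**
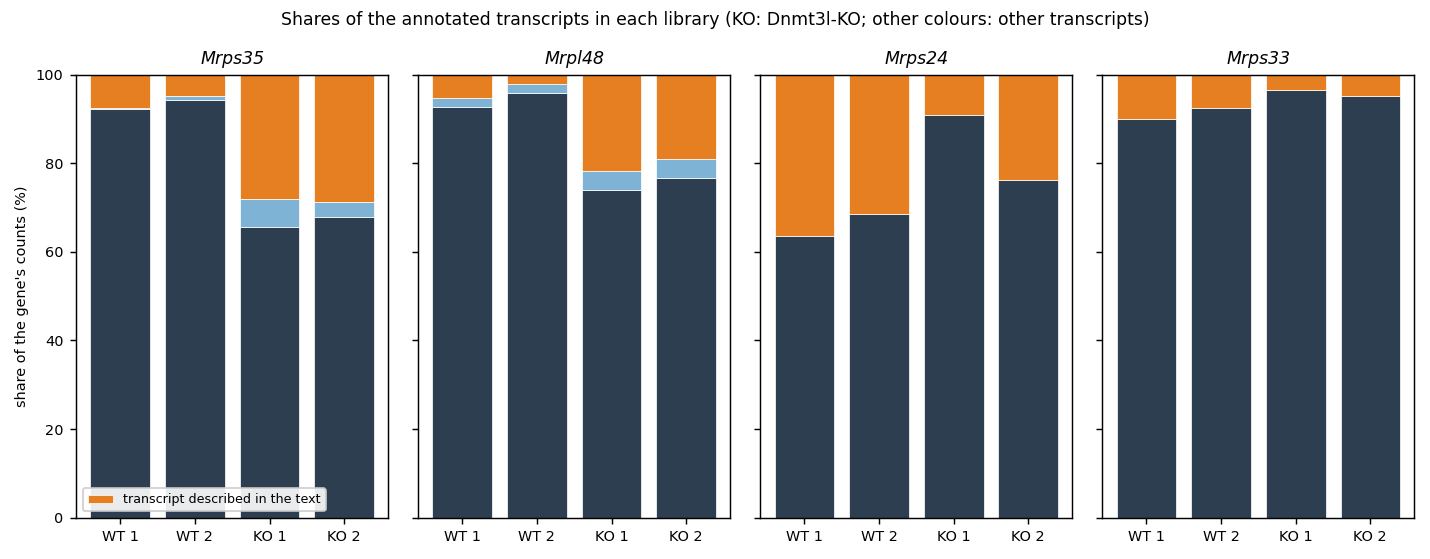
Share of each gene's counts on each annotated transcript, in percent, in the 4 libraries; orange marks the transcript described (the predicted variant X1 of Mrps35, the non-coding transcript of Mrpl48, the curated transcript of Mrps24, variant 2 of Mrps33). The orange share is larger in both Dnmt3l-KO libraries for Mrps35 and Mrpl48 and smaller for Mrps24 and Mrps33.

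Many of these genes start head to head with a neighbour. By GENCODE on GRCm38, 33 of the 77 (42.9%) have a protein-coding gene on the opposite strand that starts within 1000 bases, against 15.7% of 12677 protein-coding genes tested. Of the 33 neighbours 29 were tested under their GENCODE symbols, Mrpl46 and Mrps11 being each other's. Twnk, the neighbour of Mrpl43, was tested under its older symbol Peo1 and is left out of these counts. Of the 29 neighbours 18 (62.1%) were negative, 7 (24.1%) lay below both WT libraries and 5 (17.2%) above. Their median log2 fold change was -0.046. The shares over all genes tested were 48.7%, 16.5% and 16.2%, so the share above was near that of all genes. None was called (edgeR), and 3 reached an unadjusted p below 0.05, 2 of them lower and 1 higher, where 1.81% and 2.34% of all genes did.

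Values are given for the neighbours of Mrps12, Mrpl36 and Mrpl18, which had an unadjusted p below 0.05 (edgeR). Wdfy1, Ndufb5 and Ppp1r10, the 3 neighbours with such a p of their own, were picked by that value. For Mrps18c and Mrpl49, next by p among genes with a neighbour, the neighbours did not lean lower. These were Helq (log2 0.044 ± 0.20 SE, overlapping groups) and Fau (0.13 ± 0.11 SE, above both WT libraries). Sars2, the mitochondrial serine tRNA synthetase gene that starts 172 bases from Mrps12, had 6.11 and 7.40 CPM in WT and 5.81 and 8.20 CPM in Dnmt3l-KO, with overlapping groups. Ndufs6, a complex I subunit gene next to Mrpl36, had 25.2 and 29.4 CPM in WT and 29.8 and 24.9 CPM in Dnmt3l-KO, also overlapping. Tcp1, a chaperonin subunit gene next to Mrpl18, had 430 and 406 CPM in WT and 400 and 360 CPM in Dnmt3l-KO, lower in both knockout libraries (log2 -0.14 ± 0.11 SE). Wdfy1, opposite Mrpl44, had the most negative value among the neighbours, with 56.5 and 72.3 CPM in WT and 21.1 and 39.5 CPM in Dnmt3l-KO (log2 -1.09 ± 0.32 SE, unadjusted p = 0.021). Mrpl44 itself had 11.5 and 12.9 CPM in WT and 12.3 and 9.80 CPM in Dnmt3l-KO, with overlapping groups. Ndufb5, opposite Mrpl47, was at log2 -0.27 ± 0.093 SE, and Ppp1r10, opposite Mrps18b, at 0.31 ± 0.098 SE. In all, 23 of the 77 genes overlap a protein-coding gene on the other strand, and since strand is not stated for the counting, reads from such overlaps cannot be told apart.

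**Figure D4:**
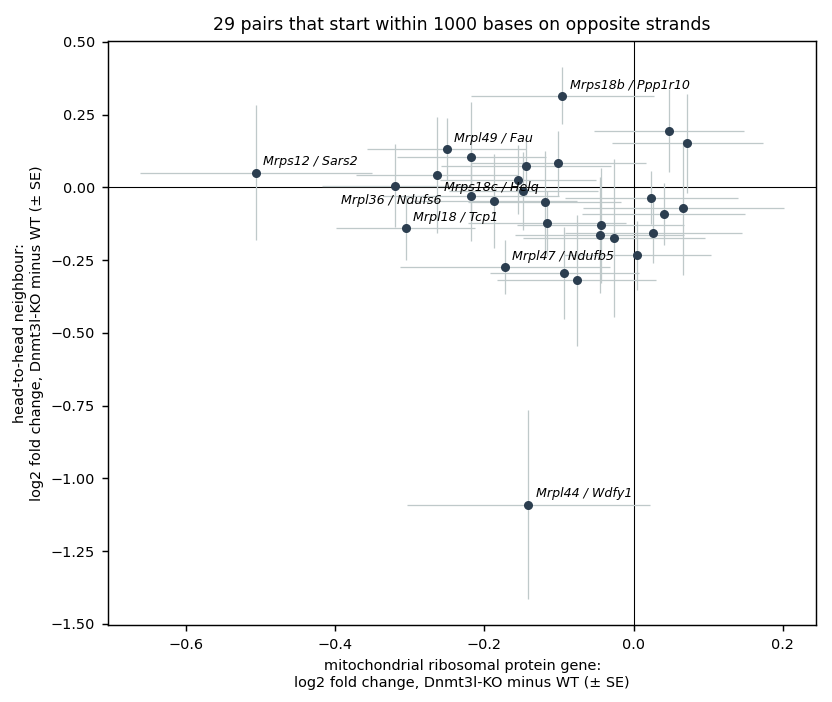
log2 fold change (Dnmt3l-KO minus WT, ± SE) of each gene against that of its head-to-head neighbour, for the 29 pairs tested under GENCODE symbols. Mrpl46 and Mrps11 each appear on both axes. The points scatter on both sides of 0 for the neighbours, and Wdfy1 lies lowest at -1.09.

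Promoter windows from RefSeq (GRCm38.p6, 250 bases before to 50 after a start) were matched to 68 of the 77 genes. The motifs below are those of factors known for nuclear genes of mitochondrial proteins, searched on both strands. The ETS motif of GABPA, CCGGAAGT, was in the windows of 17.6% of the genes, against 8.55% of 10357 tested genes with a window. The NRF1 motif GCGCANGCG was in 23.5% against 14.7%, and the YY1 motif AAGATGGCG in 11.8% against 3.38%. Any of the 3 was in 34 of 68 (50%), against 24.2%. The GC box GGGCGG, by contrast, was in 34 of 68 genes (50%) against 69.1%, and the TATA box TATAAA in 7.35% against 8.78%. A gene counted if any of its windows matched, with 74 windows for the 68 genes and 13254 for the 10357. The GC content of a gene's richest window had a median of 58.2%, against 62.3%. The part of window number and GC content in these shares was not tested. The median log2 fold change was -0.10 for genes with the ETS motif and -0.083 for those without it, -0.081 and -0.097 for the NRF1 motif, and -0.065 and -0.094 for the YY1 motif.

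The 150 bases up to the start are shown, with the match in capitals, for the 6 genes with the smallest p among those with an ETS, NRF1 or YY1 match wholly inside these 150 bases, because they place these motifs beside the values above. Genes within the same range of p whose match lies elsewhere in the window are not shown: Mrpl18 and Mrps18c, with an ETS match further upstream, Mrpl42 and Mrps18a, with a YY1 match after the start, and Mrpl33 and Mrpl52, with an ETS match at the start. The Mrpl36 window (chr13:73330859-73331008, + strand) holds a YY1 match on the reverse strand that begins 31 bases before the start. The Mrpl12 window (chr11:120484487-120484636, + strand), from the gene with the highest fold change, holds an NRF1 match 80 bases before. Mrpl51 (chr6:125192050-125192199, + strand) holds an ETS match 90 bases before. NRF1 matches stand in Mrpl57 (chr14:57826089-57826238, + strand), in Mrpl22 (chr11:58171514-58171663, + strand) and in Mrpl17 (chr7:105811088-105811237, - strand), which has 2.
Mrpl36: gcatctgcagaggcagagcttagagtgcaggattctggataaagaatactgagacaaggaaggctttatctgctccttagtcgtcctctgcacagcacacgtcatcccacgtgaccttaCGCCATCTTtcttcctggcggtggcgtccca
Mrpl12: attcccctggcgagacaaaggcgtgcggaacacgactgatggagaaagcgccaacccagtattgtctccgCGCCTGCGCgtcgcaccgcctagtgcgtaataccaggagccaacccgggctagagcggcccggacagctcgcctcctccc
Mrpl51: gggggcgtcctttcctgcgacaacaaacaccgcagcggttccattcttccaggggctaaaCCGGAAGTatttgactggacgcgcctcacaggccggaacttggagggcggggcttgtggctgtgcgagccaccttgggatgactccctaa
Mrpl57: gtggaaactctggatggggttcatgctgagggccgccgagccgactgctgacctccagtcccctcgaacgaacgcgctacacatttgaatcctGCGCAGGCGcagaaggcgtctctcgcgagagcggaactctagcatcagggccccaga
Mrpl22: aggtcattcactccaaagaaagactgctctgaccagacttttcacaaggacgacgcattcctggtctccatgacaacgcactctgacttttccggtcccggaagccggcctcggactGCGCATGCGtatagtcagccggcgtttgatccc
Mrpl17: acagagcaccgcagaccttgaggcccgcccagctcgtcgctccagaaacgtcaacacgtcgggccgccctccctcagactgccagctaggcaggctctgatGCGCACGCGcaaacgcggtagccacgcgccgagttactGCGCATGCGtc

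These matches describe the letters of the windows and say nothing of binding in these cells. Both the lower gene Mrpl36 and the higher gene Mrpl12 hold a match. Mrpl51 had 54.8 and 52.4 CPM in WT and 48.2 and 44.1 CPM in Dnmt3l-KO, and Mrpl57 had 32.4 and 32.9 CPM in WT and 30.6 and 26.8 CPM in Dnmt3l-KO, both without overlap. Mrpl22 (log2 -0.17 ± 0.11 SE) and Mrpl17 (-0.13 ± 0.089) also lay below WT in both knockout libraries.

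Genes that work with the mitochondrial ribosome were read from lists of their own, and none of their genes was called (edgeR). Their counts below are to be read against 48.7% of all genes tested negative, 16.5% below and 16.2% above both WT libraries. Of 7 other symbols of ribosomal proteins, 3 were negative, with 2 below and 4 above both WT libraries and a median of 0.042. Mrp63, an older symbol of Mrpl57 and so not a further protein, was among those above. It had only 80 and 59 counts in WT, against 88 and 79 in Dnmt3l-KO, while Mrpl57 itself lay below both WT libraries. Chchd1, a small subunit protein, had 31.0 and 30.6 CPM in WT and 22.2 and 21.6 CPM in Dnmt3l-KO, tight in both groups and lower in the knockout (log2 -0.49 ± 0.094 SE, unadjusted p = 0.0034, edgeR adjusted p = 0.999). Gadd45gip1, a large subunit protein, had 28.1 and 31.6 CPM in WT and 35.8 and 34.0 CPM in Dnmt3l-KO, above WT in both.

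Of 28 symbols of ribosome assembly, 21 were negative, 11 (39.3%) below and 1 above, with a median of -0.083. Mterf3 and Mterfd1, 2 symbols of the same assembly gene, took opposite values, log2 -0.66 ± 0.28 SE and 1.19 ± 0.50 SE. Of 16 translation factors 10 were negative, 2 (12.5%) below, under the share of all genes, and 0 above (median -0.061). Another list held 21 symbols, those of mitochondrial tRNA synthetases with Gatb, Gatc and Qrsl1 of the glutamyl-tRNA amidotransferase. Pet112, an older symbol of Gatb, was also counted, so these are not 21 separate genes. Of the 21 symbols 14 were negative, 7 (33.3%) below and 3 (14.3%) above, the latter near the share of all genes (median -0.041). The 12 symbols of mitochondrial DNA transcription and replication included both Mterf2 and its older symbol Mterfd3. Of these 12 symbols 8 were negative, 4 (33.3%) below and 1 above (median -0.13). There Tfam, which packages and activates mitochondrial DNA, had 18.9 and 18.0 CPM in WT and 15.5 and 16.1 CPM in Dnmt3l-KO, below WT in both. Polrmt, the mitochondrial RNA polymerase, had 18.0 and 21.6 CPM in WT and 22.9 and 24.2 CPM in Dnmt3l-KO, above WT in both.

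Among 10 regulators of mitochondrial biogenesis 3 were negative, 0 lay below and 4 above, with a median of 0.068. Myc, a transcription factor of growth, had 29.7 and 28.8 CPM in WT and 47.3 and 34.8 CPM in Dnmt3l-KO, the knockout libraries being far apart (log2 0.49 ± 0.17 SE, unadjusted p = 0.032). Pprc1, a coactivator of NRF1 target genes, had 54.5 and 52.7 CPM in WT and 64.5 and 58.5 CPM in Dnmt3l-KO. Gabpa, the factor whose ETS motif was searched above, had 53.4 and 52.4 CPM in WT and 55.1 and 56.2 CPM in Dnmt3l-KO, above WT by a small margin.

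Larger lists of related function leaned the same way. Of 85 cytosolic ribosomal protein genes, 72 (84.7%) were negative, 55 (64.7%) lay below both WT libraries and 5 (5.88%) above, where 48.7%, 16.5% and 16.2% of all genes did. Their median was -0.19, more negative than that of the 77 genes. Of 75 nuclear genes of the respiratory chain and the ATP synthase, 61 (81.3%) were negative, 33 (44%) lay below and 1 (1.33%) above. The median of these 75 genes was -0.12. Replicate 2 of Dnmt3l-KO stood lower in these lists as well. Its medians were -0.25 for the cytosolic ribosome and -0.21 for the respiratory chain with the ATP synthase. Those of replicate 1 were -0.11 and -0.061. The part of message length and GC content in these values was not tested beyond the correction given above.

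**Figure D5:**
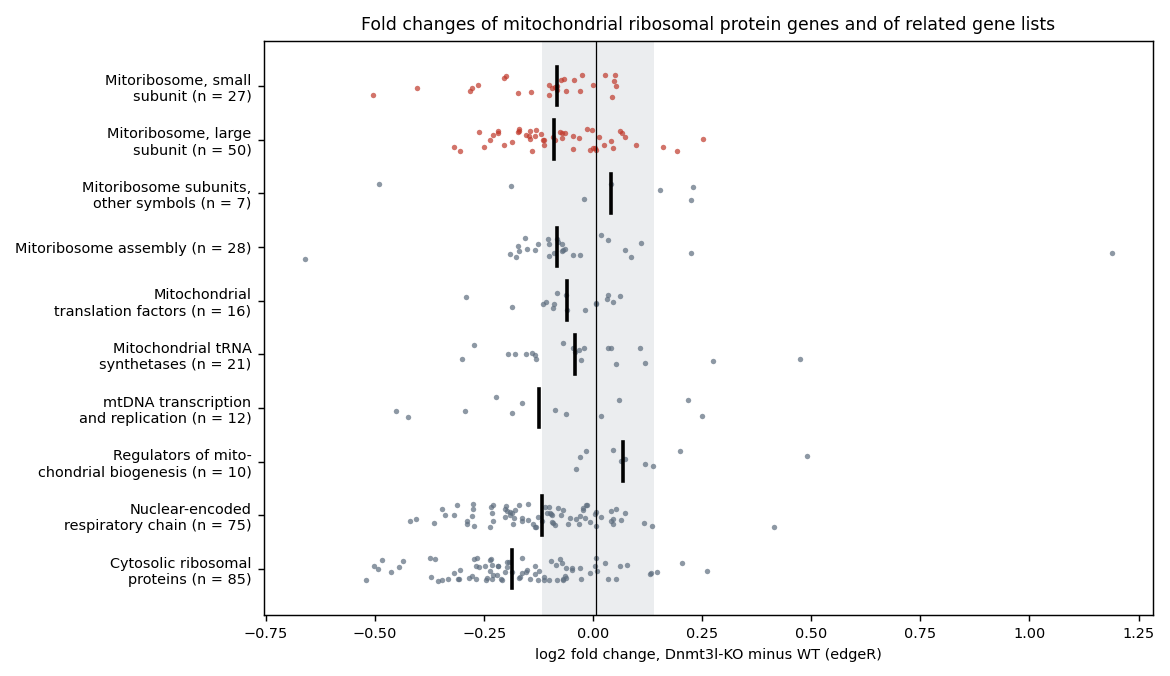
Fitted log2 fold changes (Dnmt3l-KO minus WT) of the genes of each list, with each list's median as a black bar; the grey band holds the middle of all genes tested (25th to 75th percentile) and the thin line their median, 0.006. The tRNA synthetase list includes the amidotransferase symbols, and the respiratory chain list includes the ATP synthase. Both subunits have medians near -0.09, between those of the respiratory chain list (-0.12) and of the biogenesis regulators (0.068). No gene shown passed the test.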

How the data were processed

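RNA-seq of 4 MEF libraries was used: rRNA-depleted RNA, random primers, a TruSeq kit and 12 PCR cycles, per the labels. The submitters' processing notes name DESeq2 1.8.0, eXpress 1.4.1, Cufflinks 2.2.1 and TopHat2 2.0.12, and the build mm10; the role of each was not given in the sources used here. The authors deposited 1 table, with estimated counts and FPKM for every RefSeq transcript in each library, per the file headers. These counts were whole, and some transcripts at 0 had an FPKM above 0. Per the file headers, the authors also deposited their comparison: a mean signal over libraries, a log2 fold change and its error, a test score, and p-values.

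Counts were summed per symbol and tested as Dnmt3l-KO minus WT with edgeR 4.0.16 (R 4.3.3; TMM, its expression filter, robust quasi-likelihood F-test, Benjamini-Hochberg over 14760 genes, threshold 0.05). Standard errors were derived from the F statistic. DESeq2 1.42.0 and limma 3.58.1 on log2(FPKM + pseudocount of 1 or 0.1) were alternatives, with other normalizations, no filter, single transcripts, the replicate number as a block, each library left out, and a loess correction (span 0.4) for length and GC content. The test was checked on simulated counts. Copies were compared with BLAST 2.17.0. The SD of an FPKM level is over all 4 libraries.

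The genes, lists and rules were chosen with earlier results of these data known. Genes named were the S18 homologues, the 6 smallest p in each direction, the 5 highest and 5 lowest FPKM, and up to 3 smallest p of each other list. Others, among them Mrps24, Mrps33, Mrps35, Mrpl44, Mrpl47, Mrpl48, Mrpl51, Mrpl57, Mrpl22, Mrpl17 and the neighbours, were named for their transcripts, promoters or positions after values were seen. Mitochondrially encoded genes were not analysed here.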

Additional observations from a re-analysis of the deposited data

How the results depend on the processing

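No mitochondrial ribosomal protein gene was called under any alternative. Over all genes, 3 were called by edgeR, 1 with transcripts as features, 31 by DESeq2, 6 by limma on log2(FPKM + 1), 9 on log2(FPKM + 0.1) and 8 without the filter, and 2 to 6 with each library left out. The lowest adjusted p of the 77 was 0.256 (Mrps16, without Dnmt3l-KO replicate 2; the others that gave a value for the gene tests were 0.315 or above). The median log2 fold change was -0.15 to -0.050 with each library left out, the former without Dnmt3l-KO replicate 1, and stayed negative in every alternative run. Negative genes numbered 48 (without Dnmt3l-KO replicate 2, against 52.2% of all genes) to 65 (without Dnmt3l-KO replicate 1, against 50.3%). Genes below both WT libraries numbered 35 against 16.5% of all genes, and 23 on FPKM against 10.5%. They numbered 40 with upper-quartile normalization against 18.7%, and 26 with the length and GC correction against 13.9%. With each library left out they numbered 40 to 55, against 28.6% to 38.9% of all genes. Alternatives for this count were added after seeing the data. The cause of these differences was not tested, though fewer libraries make such an order more frequent for all genes.

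The 22 genes named by the rule kept their sign in 253 of 264 alternative values. The 11 exceptions were in 5 genes: Mrpl1 (0.077 and 0.089 on FPKM with pseudocounts 1 and 0.1), Mrpl20 (0.031 and 0.032 on FPKM, 0.026 without WT replicate 2, -0.14 to 0.11 with each library left out, the latter without Dnmt3l-KO replicate 2, and 0.086 with the length and GC correction), Mrps21 (-0.30 to 0.12 with each library left out, the latter without Dnmt3l-KO replicate 2, and 0.060 with the correction), Mrps18b (-0.24 to 0.029, the latter without Dnmt3l-KO replicate 2) and Mrpl43 (-0.020 to 0.20, the former without Dnmt3l-KO replicate 1).

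With the replicate number as a block 4 genes were called, the median was -0.088 and 59 genes were negative. The labels give a shared replicate number but do not say whether it pairs libraries. Replicate 1 deviations correlated across genes at r = 0.0999, which cannot decide whether libraries with the same number share a litter or batch. Each of the 77 genes had at least 340 counts in each library.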

Other observations

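Near-identical copies could divide reads with some of these genes. By alignment of GENCODE transcripts, 19 of the 77 genes had 22 annotated pseudogenes at 95% identity or more over at least 80% of the pseudogene. Of those, 2 were in the deposited table under their own symbols and 1 had counts: Gm13552, a copy of Mrps18b, with 33 and 7 counts in WT, against 0 and 14 in Dnmt3l-KO. Mrp63, an older symbol of Mrpl57, is a separate entry outside the symbol rule, with 80 and 59 counts in WT, against 88 and 79 in Dnmt3l-KO.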
